A study of Mus musculus with 4 samples.

Results

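The genes described here are the antigen receptor loci: the variable and joining segments and the constant regions of the T cell receptors and the immunoglobulins. They were followed in mouse thymocytes given dexamethasone, a synthetic glucocorticoid. Members were the probe sets whose platform annotation carries at least 1 symbol of these loci, with Ighmbp2, an unrelated helicase gene with a similar symbol, left out. A probe set is a group of short oligonucleotides on the array that together report 1 transcript or a family of transcripts. The rule found 92 of the 12422 probe sets that are not array controls. By symbol, 6 were assigned to the alpha locus, 4 to beta, 3 to gamma and 0 to delta of the T cell receptor. Of the immunoglobulin probe sets, 39 were assigned to the heavy chain, 36 to kappa and 4 to lambda. The 4 include 2 for the surrogate light chain Igll1. Probe sets with several symbols were kept and number 14, of which 101633_at pairs Igk with Asb2, a gene outside these loci. None named segments of more than 1 locus.

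Both groups held CD4+CD8+ double-positive thymocytes, magnetically sorted from the thymus of female C3H/HeN mice of 4 weeks and held for 3 h in wells of 3 ml with 5.0E+06 cells in each ml. The medium group (2 arrays) received medium with 0.1% PBS, and the dexamethasone group (2 arrays) received 1E-07 M dexamethasone in PBS. The design text calls the 2 samples of a group technical replicate extracts, so every p-value below measures the spread between extracts and not between animals. How many mice the cells came from is not given in the sources used here. The cells were primary thymocytes in short culture without the thymic stroma.

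A T cell receptor chain is assembled in the thymus by V(D)J recombination, which needs the Rag1 and Rag2 proteins. A variable segment is joined to a joining segment, with a diversity segment between them at the beta, delta and heavy-chain loci. Double-positive thymocytes have a joined beta chain and are rearranging alpha. The gamma and delta chains form the receptor of a separate T cell lineage, and their loci are largely shut off in cells of the alpha-beta lineage. Immunoglobulin chains are made by B cells, although thymocytes are known to carry germline transcripts and partial rearrangements of the heavy-chain locus.

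Signals are the deposited MAS5 values on a linear scale. Differences are dexamethasone minus medium on log2(signal + 1), each with its standard error (SE) from limma fitted to all 7453 probe sets above a filter on dim signals, a mean log2 value that corresponds to a signal of about 10.1. A probe set rose or fell when its Benjamini-Hochberg adjusted p over those 7453 was under 0.05. Control probe sets for transcripts that were not added to the samples reached at most 14, and a signal at or under 14 is called background. Levels of different probe sets are not compared, since each has its own response. Of the 92 antigen receptor probe sets, 43 passed the filter and were tested (46.7%, against 60% of all probe sets). The 49 not tested had signals of 0.3 to 15. At or under 14 on all 4 arrays were 50 of the 92, of which 49 name immunoglobulin genes. Judged on the medium arrays alone 45 members would have passed the filter, and on the dexamethasone arrays alone 44.

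The arrays had median signals of 21.1 to 22.8. The 8 double-positive markers measured out of 10 were all above background, with summed signals of 11091 and 10704 in medium and 11487 and 10570 with dexamethasone. Among these 8, 0 rose and 1, Ptcra, fell, while 4 were higher and 4 lower with dexamethasone. Of the other cell types, natural killer (3 markers) and thymic epithelial (5) markers were at background throughout. Only 4 of 7 myeloid and 1 of 2 erythroid markers were tested, and 0 of these rose or fell. The sums over the 7 and the 2 ranged from 82.7 to 109.4 and from 96.3 to 114.9. Double-negative markers (8) held 1 that rose, Il7r, and 2 that fell, Ptcra and Gfi1, with sums of 457.8 and 482.3 in medium and 417 and 435 with dexamethasone, and Il2ra, Kit and Cd44 were at background. Of 6 mature single-positive markers 5 were tested. Il7r rose, and the other 4, Cd5, Klf2, Slfn1 and Ccr7, were lower without passing. The median log2 difference of the 5 was -0.35. Sums over the 6 were 298.4 and 330.8 in medium and 364.8 and 339.9 with dexamethasone. They include Il7r, at 49.4 and 58 in medium and 146.8 and 139.3 with dexamethasone. Actin gave 3′ over 5′ control ratios, which rise as RNA breaks down, of 1.15 and 1.06 for medium against 1.40 and 1.24 for dexamethasone. The same ratios of Gapdh overlapped, at 0.838 and 0.845 for medium and 0.904 and 0.823 for dexamethasone. The hybridization controls, added to each sample before it went onto the array, were 1.37-fold higher with dexamethasone. Scaling the arrays to them moves the median log2 difference of all tested probe sets from 0.00 to -0.45. Whether RNA quality or scaling contributed to the differences below was not tested, and values under this second scaling are given where they change the picture. In such bulk samples fewer cells of a type and less RNA per cell cannot be told apart.

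With dexamethasone 2 of the 3 gamma probe sets and 2 probe sets of Ighm rose. Of the 43 tested members 4 rose (9.30%) and 0 fell, against 1.64% of all tested probe sets that rose and 1.52% that fell. Ighm is the symbol of the constant region of the immunoglobulin mu heavy chain. No tested alpha, beta, kappa or lambda probe set passed. The median log2 difference of the tested members was 0.06, beside 0.00 for all tested probe sets.

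**Figure D1:**
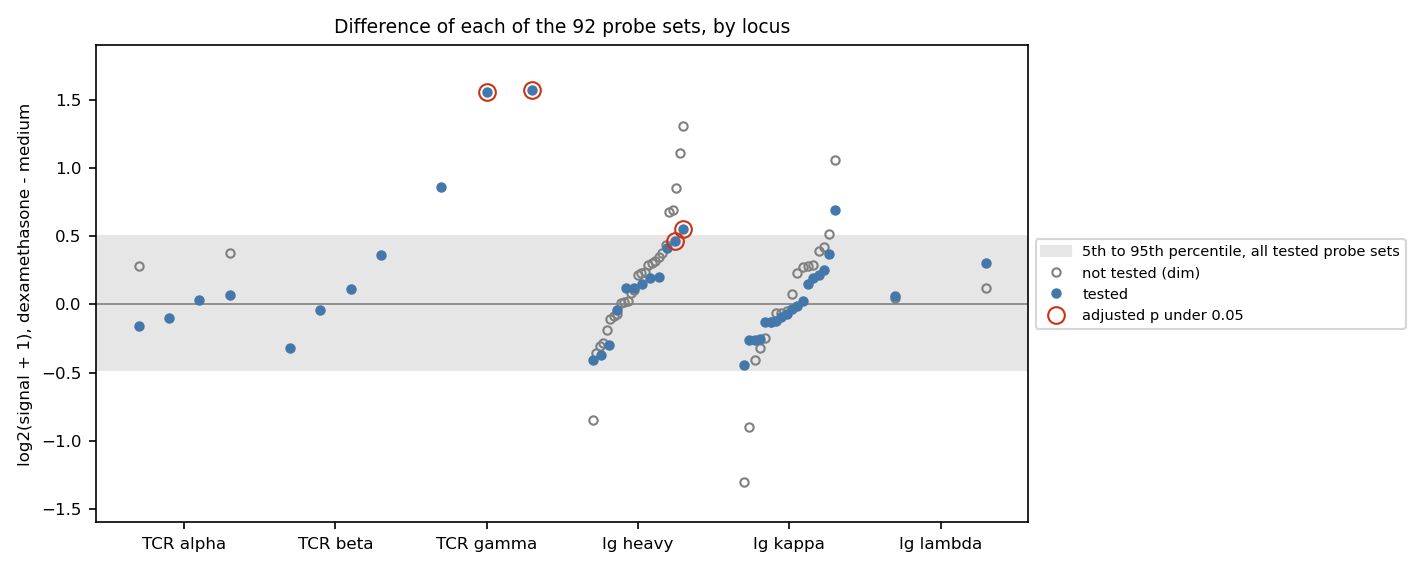
Log2 difference, dexamethasone minus medium, of each of the 92 antigen receptor probe sets (vertical axis, log2(signal + 1)), grouped by locus, with tested and untested ones each sorted from lowest to highest. Filled points were tested, open points were too dim to test, red rings mark adjusted p under 0.05, and the grey band spans the 5th to 95th percentile of all tested probe sets (-0.48 to 0.50); all 3 gamma points lie above the band.

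The gamma locus encodes a chain of the gamma-delta receptor. Trgv1, a variable segment of this locus, had signals of 26.0 and 30.4 in medium and 87.6 and 83.7 with dexamethasone (probe set 102695_at). Both dexamethasone arrays lay far above both medium arrays. Trgv1 rose 2.98-fold (log2 difference 1.57 ± 0.15 SE, limma adjusted p = 0.00507) and ranked 23rd of 7453 by its difference.

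A probe set that names Trgv4 and Trgv2 together (102744_at) moved by nearly the same amount. Its signals were 34.1 and 39.8 in medium and 102.9 and 118.3 with dexamethasone. The groups were again well apart, and it rose 2.94-fold (log2 difference 1.56 ± 0.14, limma adjusted p = 0.00499). It ranked 24th of 7453. Transcripts of Trgv4 and Trgv2 cannot be separated on this probe set.

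The probe set that names Trgv4 alone (102745_at) had signals of 31.9 and 26.9 in medium and 50.4 and 58.1 with dexamethasone. These groups did not overlap either, but the log2 difference of 0.86 ± 0.17 missed the threshold (limma adjusted p = 0.0571). It passed when genes, each by its brightest probe set, were fitted in place of probe sets (adjusted p = 0.0438). The 2 Trgv4 probe sets share a symbol, so the 3 gamma probe sets are not 3 independent genes. All 3 gamma probe sets were above background on every array, and each gamma probe set passed the filter in either group alone.

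In the RefSeq annotation of GRCm38.p6, a C57BL/6J assembly, Trgv1 and Trgv2 are next to each other, with Trgv2 between Trgj2 and Trgv1 and Trgv1 between Trgv2 and Trgj4. Trgv4 lies in another part of the locus, between Trgv7 and Trgv6. Of the probe sets that rose, 102744_at names a segment of each part, and the probe set of Trgv4 alone did not pass. Whether the oligonucleotides lie in the variable, joining or constant part of a rearranged transcript is not given in the sources used here, nor is whether the RNA came from joined or unjoined segments.

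The gamma calls rested on both dexamethasone arrays. Without replicate 1 of dexamethasone the adjusted p was 0.0729 for Trgv1 and 0.0572 for 102744_at, and without replicate 2 it was 0.0540 and 0.0552. Without a variance trend it was 0.0502 and 0.0621. The differences of both stayed between 1.10 and 1.68 under every alternative in which they were fitted, and with scaling to the hybridization controls Trgv1 was at 1.12 and 102744_at at 1.10, both past the threshold. There Trgv4 (102745_at) was at 0.41 with adjusted p = 0.125.

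Markers of gamma-delta T cells did not pass. Of 8 listed, 6 were measured, 3 tested, 0 rose and 0 fell, and Il17a, Ccr6 and Gzmb were at or under 14 on every array. Their summed signal on the medium arrays was 161.8 and 143.1, and on the dexamethasone arrays 161.1 and 146.1. Of the 3 tested, 2 were higher and 1, Tmem176a, was lower with dexamethasone. Sox13, a transcription factor of this lineage, was at 88.1 and 76.4 in medium and at 90.6 and 86.5 with dexamethasone. Tmem176a was at 52.6 and 37.2 in medium and at 35.5 and 32.8 with dexamethasone. Most of the summed signal came from Sox13 and Tmem176a. The part of gamma-delta T cells in the rise of the gamma probe sets was not tested.

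**Figure D2:**
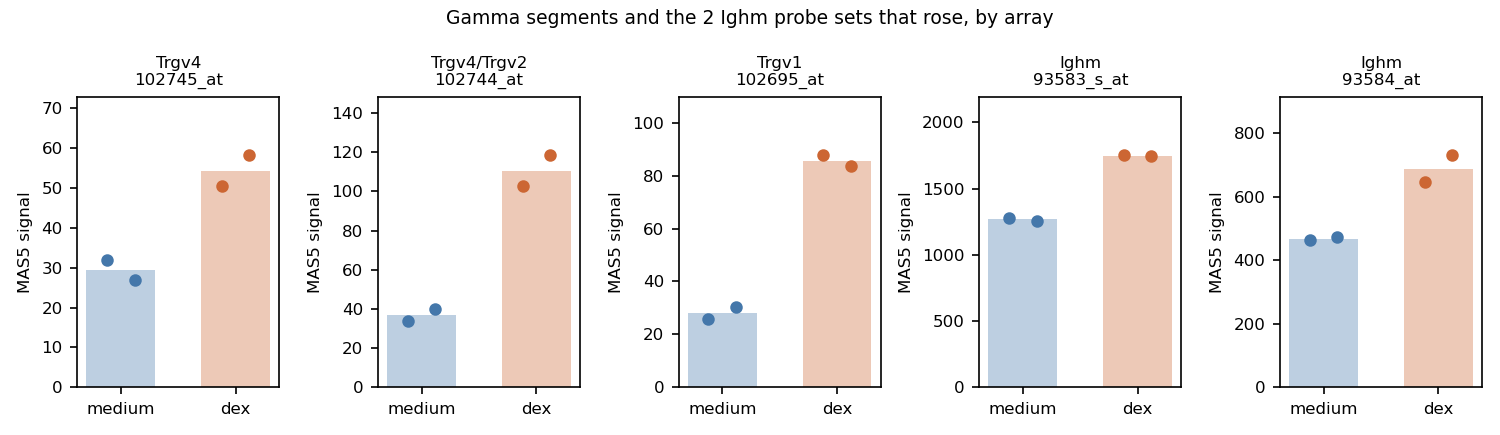
MAS5 signal (vertical axis, linear, from 0) of the 3 gamma probe sets and the 2 Ighm probe sets that rose; points are the 2 arrays of a group and bars their mean, with medium in blue and dexamethasone (dex) in orange. In all 5 panels both dexamethasone arrays lie above both medium arrays, and axes differ between panels.

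The alpha and beta loci, which supply the receptor of the double-positive cells themselves, had no probe set that passed. Their annotation names variable segments, but as for gamma it does not say whether a probe set reports that segment, another segment joined to it or the constant region. Of 6 alpha probe sets 4 were tested, with log2 differences from -0.16 to 0.07, and of 4 beta probe sets all were tested, with -0.32 to 0.36. Their medians were -0.04 for alpha and 0.03 for beta.

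Trav9d-3, an alpha variable segment, is named by 3 probe sets. On 97945_at it had signals of 1219.9 and 1231.7 in medium and 1260.0 and 1242.8 with dexamethasone, a log2 difference of 0.03 ± 0.06. On 97944_f_at it had 1972.0 and 1842.1 in medium and 1822.8 and 1731.5 with dexamethasone, so its log2 difference was -0.10 ± 0.07 (limma adjusted p = 0.494). The groups did not overlap on either probe set, yet the direction differed between them and the shifts were small. The letter f marks a design whose oligonucleotides match a family of related sequences. On the dim 93224_at the log2 difference was -0.16 ± 0.21.

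Trav19 was at 21.2 and 20.8 in medium and at 18.5 and 26.4 with dexamethasone, with the medium arrays between the dexamethasone arrays. Trav6-2 was at background on every array, and Trav12n-1 exceeded it only on the first dexamethasone array, at 15.0.

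Trbv1, the first variable segment in the order of the beta locus, is named by 2 probe sets. On 93105_s_at, where s marks oligonucleotides shared by several transcripts, signals were 4616 and 4277.5 in medium and 6404.8 and 5108.4 with dexamethasone. The groups did not overlap, and the log2 difference was 0.36 ± 0.12 (limma adjusted p = 0.170). The 2 dexamethasone arrays were farther apart than the medium arrays. The difference shrank to 0.02 after quantile normalization and was -0.09 with scaling to the hybridization controls. On 94726_at Trbv1 was at 667.4 and 650.6 in medium and 626.9 and 651.7 with dexamethasone, a log2 difference of -0.04 ± 0.07 with overlapping groups.

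Trbv13-2 also moved apart on its 2 probe sets. On 94202_at the signals were 268.4 and 259.2 in medium and 221.8 and 200.6 with dexamethasone, so that both dexamethasone arrays were lower. The log2 difference of -0.32 ± 0.09 did not pass (limma adjusted p = 0.115). On 101279_f_at they were 651.5 and 691.3 in medium and 787.2 and 669.5 under dexamethasone, overlapping groups with a log2 difference of 0.11 ± 0.09. The difference between the probe sets of a segment was not tested.

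With scaling to the hybridization controls, 4 of these alpha and beta probe sets fell: Trav9d-3 on 97944_f_at (-0.56) and 97945_at (-0.42), Trbv13-2 on 94202_at (-0.78) and Trbv1 on 94726_at (-0.50). The other 6 members that fell there were the Ighm probe sets 100362_f_at and 99420_at, Igkv4-59 (101751_f_at), Igkv6-23 (102156_f_at), and 93086_at and 102585_f_at, which name Igkc. Under that scaling 42.9% of all tested probe sets fell.

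**Figure D3:**
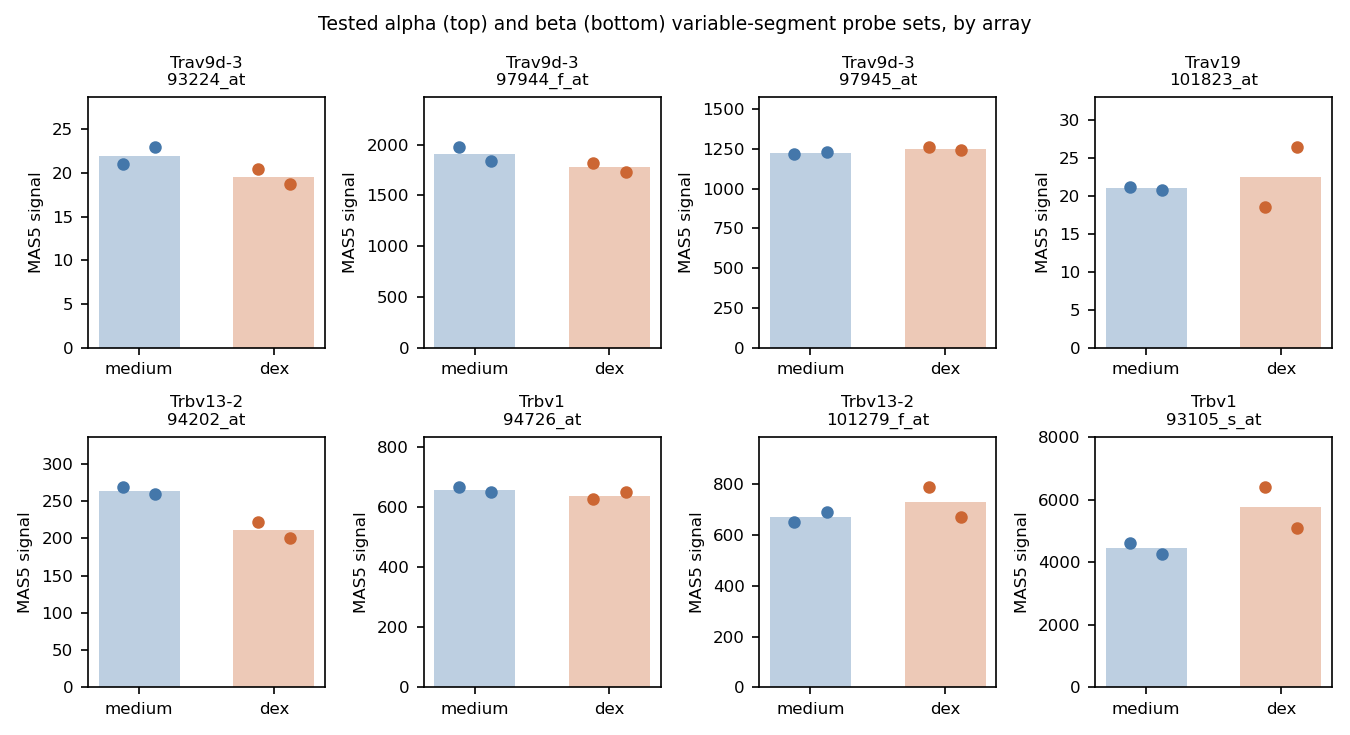
MAS5 signal (vertical axis, linear, from 0) of the 4 tested alpha probe sets (top row) and the 4 beta probe sets (bottom row); points are the 2 arrays of a group and bars their mean, with medium in blue and dexamethasone (dex) in orange. Shifts are small beside those of the gamma segments, and the 2 probe sets of Trbv1 and of Trbv13-2 differ in direction.

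At the immunoglobulin heavy-chain locus 2 probe sets annotated as Ighm rose. Ighm on 93583_s_at had signals of 1282.4 and 1257.4 in medium and 1751.4 and 1748.9 with dexamethasone, with very close values within each group. The log2 difference was 0.46 ± 0.06 (limma adjusted p = 0.0173). On 93584_at Ighm had 464.4 and 472.5 in medium and 646.7 and 730.4 with dexamethasone, and the log2 difference was 0.55 ± 0.08 (limma adjusted p = 0.0235). These are rises of 1.38-fold and 1.47-fold, far smaller than those of Trgv1 and Trgv2/Trgv4.

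The Ighm calls depended on the scaling and on every array. With scaling to the hybridization controls the differences were 0.01 (adjusted p = 0.960) and 0.10 (adjusted p = 0.633). Leaving out any 1 array gave adjusted p of 0.0684 to 0.190 for 93583_s_at and 0.0674 to 0.192 for 93584_at, with differences of 0.45 to 0.48 and 0.46 to 0.64.

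Of the other 14 probe sets that name Ighm alone, 2 were tested, and both were lower with dexamethasone without passing. On 100362_f_at signals were 32.0 and 28.1 in medium and 24.0 and 20.8 with dexamethasone (-0.41 ± 0.20), and on 99420_at they were 29.6 and 33.5 in medium and 22.8 and 25.4 with dexamethasone (-0.37 ± 0.19). Both pairs of groups are separate and lie in the direction opposite to that of the probe sets that rose. The remaining 12 were at or under 11.9 on every array. The annotation gives all 16 the same symbol and does not say which part of a mu transcript each one reports.

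The other heavy-chain constant regions did not pass. Igha, of immunoglobulin A, was at 42.8 and 44.1 in medium and 46.6 and 53.2 with dexamethasone on 100583_at (0.19 ± 0.15), and its other 2 probe sets were at background. Ighd, the delta constant region that lies next to mu, was at 44.7 and 25.9 in medium and 36.8 and 37.4 with dexamethasone, where the medium arrays enclose the others. Ighg3, an immunoglobulin G constant region, was at background on all 7 of its probe sets, with signals of 0.3 to 12.3.

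Of 9 probe sets for heavy-chain variable segments, 5 were at background on every array and the other 4 were tested. Igh-VS107 on 102152_f_at was at 69.7 and 69.5 in medium and 101.2 and 85.4 with dexamethasone, so the groups were separate. Its log2 difference of 0.41 ± 0.13 did not pass (limma adjusted p = 0.156) and was -0.04 with scaling to the hybridization controls. Ighv5-12, Ighv3-6 and Ighv1-54 had log2 differences of 0.12, -0.04 and -0.30 with overlapping groups. A probe set that names Ighv14-2 with 3 constant regions (99421_at) was at 106.2 and 95.5 in medium and 112.7 and 110.7 with dexamethasone (0.15 ± 0.10).

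At the kappa light-chain locus 18 of 36 probe sets were tested, and 7 were higher and 11 lower with dexamethasone, none past the threshold (lowest limma adjusted p 0.168). The median log2 difference was -0.05. The 5 probe sets that name the kappa constant region Igkc do so together with variable segments, and they were set side by side after their values were seen. On 93086_at, which names Igkv6-23, Igkv4-53, Igkv8-30, Igkj1 and Igkc, signals were 581.5 and 539.9 in medium and 444.2 and 492.5 with dexamethasone, lower on both arrays (-0.26 ± 0.08, limma adjusted p = 0.168). Of the 5, 4 were lower and 3 of them had separate groups. Over all tested probe sets 25.5% were lower with separate groups.

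On 97567_f_at, which names Igkc and 4 variable segments, the order was the opposite, with 45.9 and 43.3 in medium and 50.9 and 48.2 with dexamethasone (0.15 ± 0.14, and -0.31 with scaling to the hybridization controls). This probe set and 102585_f_at (-0.25 ± 0.17) share the symbols Igkv4-59, Igkv4-70 and Igkc.

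**Figure D4:**
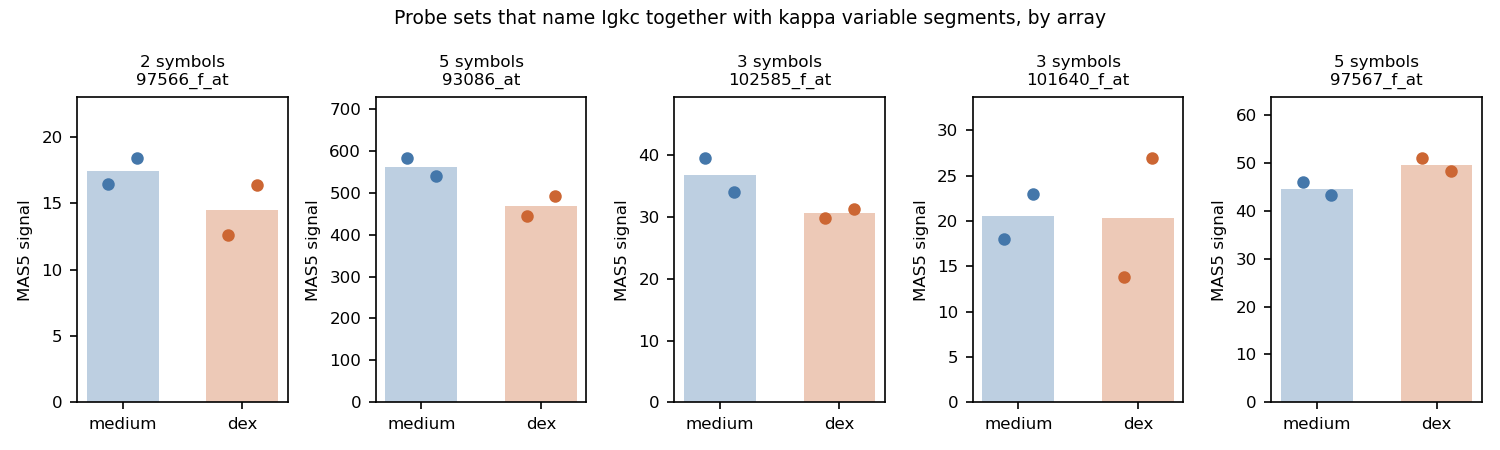
MAS5 signal (vertical axis, linear, from 0) of the 5 probe sets that name the kappa constant region Igkc among 2 to 5 symbols; points are the 2 arrays of a group and bars their mean, with medium in blue and dexamethasone (dex) in orange. The groups are separate and lower with dexamethasone on 97566_f_at, 93086_at and 102585_f_at, overlap on 101640_f_at and are separate and higher on 97567_f_at.

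Among the tested probe sets of kappa variable segments the largest log2 difference was that of Igkv1-133, at 9.8 and 11.2 in medium, which is background, and at 21.3 and 14.5 with dexamethasone. It did not pass (limma adjusted p = 0.281). Igkv4-91 was at 39.3 and 30.3 in medium and 50.4 and 40 with dexamethasone (0.37 ± 0.20). Igkv4-59 alone was at 13.3 and 16.5 in medium and 7.7 and 14.5 with dexamethasone (-0.45 ± 0.36). Igkv6-23 alone was at 120.1 and 148.6 in medium and 109.5 and 143.8 with dexamethasone, overlapping groups whose first arrays were both the lower ones. The 3 whole-locus probe sets for Igk were at background.

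The 4 probe sets grouped with lambda by symbol had signals of 0.5 to 20.8. They name the constant region Iglc1, alone or with the variable segment Iglv1, or Igll1. Igll1 is not a lambda segment but a surrogate light chain, which pairs with mu in B cell precursors. Igll1 on 99428_at was at 17.7 and 12.6 in medium and 16.7 and 20.8 with dexamethasone (0.30 ± 0.28). Iglc1 on 93639_r_at stayed at or under 13.8 (0.06 ± 0.39).

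Markers of B cells did not pass. Of 15 listed, 13 were measured, 7 tested, 0 rose and 0 fell, and 6 were at background on every array: Cd22, Ebf1, Cr2, Fcer2a, Cd72 and Vpreb3. The summed signal of the 13 was 196.5 and 190.4 for medium, below the 225.7 and 201.0 for dexamethasone. These values take the brightest probe set of each gene. Second, dimmer probe sets had log2 differences from -1.03 for Vpreb3 to 1.76 for Ms4a1, against 0.685 and 0.37 on their brightest. On the brightest probe sets, 4 of the 7 tested were higher and 3 lower with dexamethasone. Cd79b, a signalling chain of the B cell receptor, was at 85.5 and 89.2 in medium and 96.5 and 91.7 with dexamethasone. The 3 lower ones were Pou2af1, Cd79a and Blnk, with log2 differences of -0.52, -0.05 and -0.05. Of 5 plasma cell markers measured out of 6, 2 were tested and 0 rose or fell. The sums of the 5 were 378.3 and 446.5 for medium and 343.9 and 397.4 for dexamethasone. Sdc1, Prdm1 and Irf4 were at background, and Jchain, which links antibody units, was at 19.0 and 18.9 in medium and 20.4 and 17.3 with dexamethasone. The part of B lineage cells in the Ighm rise was not tested.

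Without regard to the threshold, the groups were separate with dexamethasone higher for 14 of the 43 tested members (32.6%) and with dexamethasone lower for 8 (18.6%), against 24.5% and 25.5% of all tested probe sets. The 14 include all 3 gamma probe sets, and 5 are of the heavy chain and 4 of kappa.

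For the machinery that recombines and assembles the receptors, 21 of 29 listed genes were measured and 20 tested. Of the 20, 1 rose and 1 fell, beside 1.64% and 1.52% of all tested probe sets, with a median log2 difference of -0.01. The list was drawn up with earlier results of these data known, so its counts cannot be read as an enrichment. Xrcc6, a Ku subunit that holds broken DNA ends for joining, rose from 708.5 and 768.5 in medium to 1369.3 and 1186.1 with dexamethasone. Its log2 difference was 0.79 ± 0.09 (limma adjusted p = 0.0104). It was 0.33 with scaling to the hybridization controls (adjusted p = 0.0634), and the call was lost without either medium array (adjusted p = 0.117 and 0.0801) and without replicate 1 of dexamethasone (0.0696). Ptcra, the partner of a newly made beta chain, was at 87.7 and 86.1 in medium and fell to 49.5 and 47.0 (-0.84 ± 0.12, limma adjusted p = 0.0215). With no variance trend the limma adjusted p was 0.119 for Xrcc6 and 0.0812 for Ptcra. The Ptcra call was lost whichever array was left out (adjusted p 0.0863 to 0.192).

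The recombinase genes did not pass. Rag1 was at 2130.8 and 2097.6 in medium and at 2929.3 and 2347.2 with dexamethasone (0.31 ± 0.11, limma adjusted p = 0.199), and Rag2 at 285.0 and 282.3 against 303.3 and 330.0 (0.16 ± 0.08). Dntt, which adds bases at the joints, had a log2 difference of 0.03 on its brightest probe set and -0.02 and -0.45 on the others. The CD3 chains, with which the receptor reaches the surface, had log2 differences of -0.06 for Cd3e, -0.10 for Cd3d, -0.17 for Cd3g and 0.17 for Cd247 on the brightest probe set of each. A second probe set had the opposite sign for Cd3d (0.46) and Cd247 (-0.45).

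Of 33 factors known to act on antigen receptor loci 28 were measured and 25 tested. Of the 25, 3 rose and 3 fell, beside 1.64% and 1.52% of all tested probe sets, and the median log2 difference was 0.07. This list was drawn up with earlier results of these data known, so its counts cannot be read as an enrichment. Il7r, the interleukin-7 receptor chain whose signal through Stat5 is known to open the gamma locus, rose from 49.4 and 58.0 in medium to 146.8 and 139.3 with dexamethasone, and its log2 difference was 1.40 ± 0.12 (limma adjusted p = 0.00412). Without replicate 1 of dexamethasone the adjusted p was 0.0674. Of the Stat5 genes, Stat5a was at 713.9 and 623.4 in medium and 512.8 and 517.5 with dexamethasone (-0.37 ± 0.08, limma adjusted p = 0.0778), and Stat5b had a log2 difference of -0.01. The part of Il7r or Stat5 in the rise of the gamma probe sets was not tested.

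Nfatc3, a calcium-regulated factor, rose by 0.56 ± 0.07 and the chromatin organiser Satb1 by 0.43 ± 0.07 on the log2 scale, but with scaling to the hybridization controls they were at 0.11 and -0.03. A second Nfatc3 probe set had a log2 difference of 0.12. Nfatc3 and Satb1 lost the call whichever array was left out, with adjusted p of 0.0748 to 0.117 and 0.0632 to 0.273. Id3, an inhibitor of E proteins, Runx1, which binds receptor enhancers, and Ets2 fell, with log2 differences of -2.30 ± 0.11, -1.29 ± 0.16 and -0.79 ± 0.07. Id3 passed whichever array was left out. Runx1 lost the call without either medium array (adjusted p = 0.147 and 0.107) or without replicate 1 of dexamethasone (0.0750), and Ets2 without replicate 2 of medium (0.0567) or replicate 1 of dexamethasone (0.0503). The E protein genes themselves did not pass: Tcf3, which encodes E2A, had a log2 difference of 0.21 ± 0.16 and Tcf12, which encodes HEB, 0.10 ± 0.07. Gata3, at -0.56 ± 0.11, and Ikzf1, at 0.68 ± 0.13, were close to the threshold (limma adjusted p = 0.0593 and 0.0537). A second Ikzf1 probe set had a log2 difference of 0.42. With no variance trend Id3 kept its call (limma adjusted p = 0.0275), while those of Il7r, Nfatc3, Satb1, Runx1 and Ets2 were lost.

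**Figure D5:**
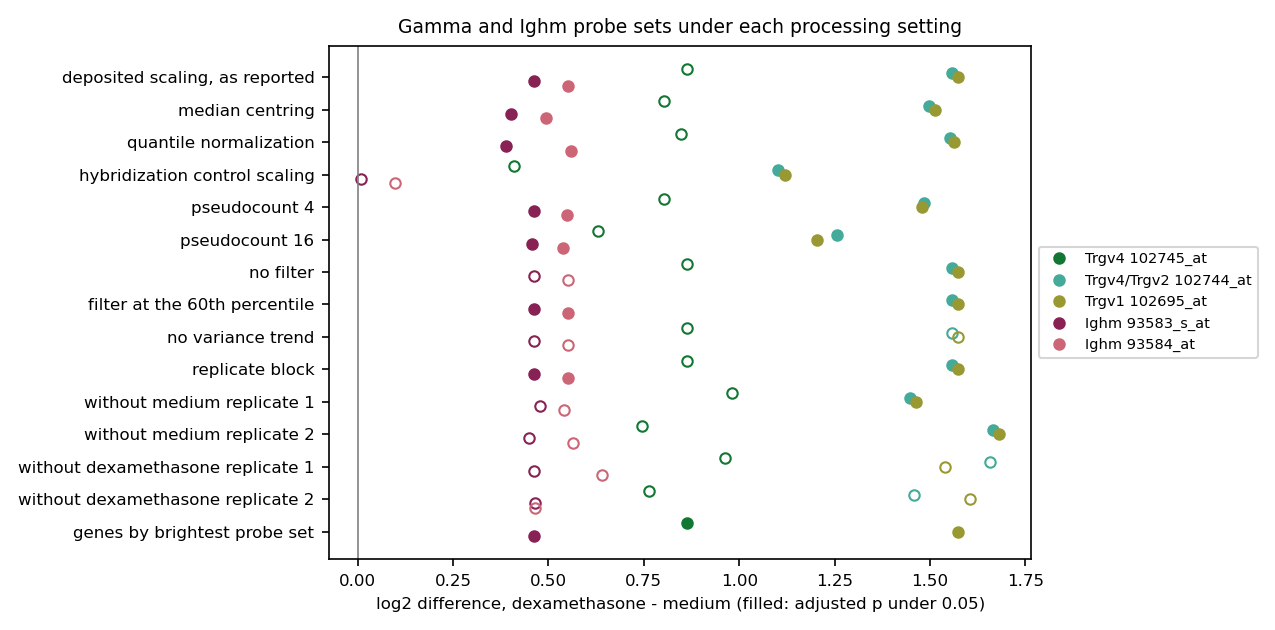
Log2 difference, dexamethasone minus medium (horizontal axis), of the 3 gamma and 2 Ighm probe sets under the reported processing and each alternative (vertical axis); filled points passed an adjusted p of 0.05 and open points did not. The gamma probe sets 102744_at and 102695_at stay between 1.10 and 1.68, while the Ighm probe sets drop to 0.01 and 0.10 with scaling to the hybridization controls.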

How the data were processed

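The 4 samples, 2 per group, were each measured on 1 Affymetrix array. The authors deposited linear signal intensities per probe set; the submitters' processing notes name MAS5, and its version and settings are not given in the sources used here. Trimmed means of 100.06 to 100.07, with 2% cut at each end, show a common scaling. Of 12488 probe sets 66 are controls, and of the others 10833 name 1 gene in the platform annotation, 396 several and 1193 none. Of 46 distinct antigen receptor symbols, 45 matched the RefSeq table of GRCm38.p6 by gene ID and 0 were renamed.

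Values were used as log2(signal + 1), which understates changes of dim probe sets. Tested were those whose mean over the 4 arrays exceeded the 40th percentile of that mean. Dexamethasone was compared with medium with limma 3.58.1 under R 4.3.3 (lmFit, then eBayes with trend = TRUE), two-sided, adjusted by Benjamini-Hochberg at 0.05. An exact permutation test of 2 against 2 arrays cannot go below 0.333 and was not used. Probe sets, not genes, were fitted, since many members name several segments. Simulated data with known changes were used to check the script. For list genes the brightest probe set naming that gene alone was used.

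Named were all members that passed, probe sets of constant regions and whole loci, Trgv1 and Ighm, the 3 largest differences per locus, and passing genes of the recombination list or, failing these, its 2 largest; other names were chosen after their values were seen. Members and lists were chosen with earlier results of these data known. Same-numbered arrays deviated together with a correlation of 0.0944, and nothing in the labels ties their numbers. Alternatives were 3 scalings, pseudocounts of 4 and 16, no filter or the 60th percentile, no variance trend, a replicate block, genes in place of probe sets, and leaving out each array. The number of arrays limits the precision.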

Additional observations from a re-analysis of the deposited data

How the results depend on the processing

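With scaling to the hybridization controls, 2 antigen receptor probe sets rose and 10 fell, beside 62 and 3196 of all 7453 (3258 changed). The medians by locus were then -0.49 for alpha, -0.42 for beta, 1.10 for gamma, -0.32 for heavy, -0.51 for kappa and -0.27 for lambda. Under it the log2 difference changed sign for 18 of the 43 tested members, among them Ighd (-0.33), Igha (-0.26), Ighg3 on 102721_at (-0.25), Iglc1 (-0.39), Trav19 (-0.38), Trbv1 on 93105_s_at (-0.090), Trbv13-2 on 101279_f_at (-0.34), Igh-VS107 (-0.042), Igkv4-91 (-0.084), Igll1 (-0.15), and also for Satb1 (-0.029). Centring on medians gave 94 rises and 153 falls of all probe sets against 122 and 113, with the alpha median at -0.10 and the beta median at -0.025. Quantile normalization gave -0.091 for alpha and -0.016 for beta, and -0.059 for Iglc1. With a pseudocount of 16 the gamma median was 1.20.

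Without a filter 112 of 12422 probe sets changed (66 rose, 46 fell), 2 members rose and the alpha median over all 6 probe sets was 0.051. With the stricter filter the heavy median over 6 was 0.30. Without the variance trend 13 probe sets changed (12 rose, 1 fell) and 0 members rose. The labels do not say that equal replicate numbers mark shared material; a replicate block gave 5 members that rose, with Trbv1 on 93105_s_at added (adjusted p = 0.0329), beside 172 rises and 174 falls of all.

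Leaving out 1 array gave 27 to 62 changed probe sets, 23 to 43 rises and 4 to 25 falls, and 0 to 2 members that rose. The medians ranged from -0.082 to -0.015 for alpha, from -0.020 to 0.29 for heavy and from -0.12 to 0.074 for kappa. The log2 difference changed sign for 3 to 7 of the 43 tested members, depending on the array. Its range crossed 0 among others for Ighd (-0.26 to 0.50), Ighg3 on 102721_at (-0.029 to 0.44), Iglc1 (-0.35 to 0.48), Trav19 (-0.17 to 0.32) and Trbv13-2 on 101279_f_at (-0.0035 to 0.23), and these 5 did not pass in any case. When 1 array of a group is left out, the remaining one is assumed to vary like the others.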
